A study of Homo sapiens with 18 samples.

Results

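The cultures described here are human melanoma cells that received only DMSO, the solvent vehicle of a drug study, and were collected 6 h or 24 h later. They make up 12 of the 18 arrays of the series, 6 at each time, and were chosen by treatment label alone. Each of the 3 established cell lines, SKMEL5, WM2664 and A375, contributed 2 arrays at 6 h and 2 at 24 h. All lines were grown in RPMI with serum, and no group carried a transgene or an engineered allele. The remaining 6 arrays hold the same lines at the same times with A-485, a catalytic inhibitor of the acetyltransferases p300 and CBP, at a labelled dose of 3.0 mM with 1 array per line and time. They are used only for a side-by-side reading at the end. The series describes 2 of the lines as sensitive to A-485 and 1 as resistant, without saying in the labels used here which is which. No label gives the seeding density, a change of medium, the cell number at harvest or the array batch. The comparison of 24 h with 6 h therefore covers everything that differs between these collections, and time and any batch of extraction or hybridisation cannot be told apart.

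A culture that is left to grow takes up amino acids, glucose and lipids from its medium and becomes denser. Cells sense a shortage of amino acids through the kinase GCN2, which slows general translation and raises the transcription factor ATF4. ATF4 then turns on genes for amino acid synthesis, import and tRNA charging. Sterol and fatty acid synthesis is governed separately by the SREBP factors, which are held in the endoplasmic reticulum by INSIG proteins while sterols are plentiful. Genes for DNA replication are driven by E2F factors around the entry into S phase, and genes of mitosis peak later in the cycle. In bulk RNA such as this, fewer cells in a state and less of a transcript per cell cannot be told apart.

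Values are intensities scaled between arrays by quantile normalization, with everything under a floor of 32 set to 32, and differences are log2 of 24 h over 6 h. A gene was called when the Benjamini-Hochberg adjusted p of limma over all 11145 genes tested was under 0.05. The deposited medians of the 12 arrays lay between 19.5 and 29.0, and replicate arrays correlated across genes at 0.988 to 0.993. The melanocyte markers, summed over 11 measured genes, read 51757 to 53759 in SKMEL5, 37608 to 40587 in WM2664 and 2097 to 2647 in A375. In A375 at 24 h MLANA, TYR and TYRP1 were at the floor. Replicates are arrays that the labels number within a group. Nothing says that they came from separate cultures, so the p-values measure the spread between these arrays only.

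On 3 of the 12 arrays, genes silent in the labelled line but bright in another line stood above their level on the other arrays of the labelled line. The median excess was 1.55% of the SKMEL5 level on the first WM2664 array at 6 h, 0.78% of the SKMEL5 level on the first A375 array at 6 h, and 0.70% of the A375 level on the second WM2664 array at 24 h. MLANA, a pigment cell marker, read 264 on that A375 array and 32 on the other 3 A375 arrays. Without these 3 arrays together, all 1007 genes called for the shared effect kept their sign, and the median size of their differences was 0.28 against 0.27 with all arrays. The 9 arrays left were among those that picked these genes, so kept signs were nearly fixed in advance. The number of calls was then only 7, with 2504 genes at an unadjusted p under 0.05. Those 7 were AARS1, CTSA, HDAC5, PARP3, SCIN, TIPIN and LOC100505715. The per-line calls without these arrays were 152 in SKMEL5, 0 in WM2664 and 0 in A375, where 1661 and 1619 genes had an unadjusted p under 0.05 in the latter 2 lines. Every call below is from all 12 arrays and is to be read with this limit.

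With cell line as a block, 1007 of 11145 genes (9.04%) differed between 24 h and 6 h. The 512 genes that rose (4.59%) and the 495 that fell (4.44%) were similar in number, and 999 of the 1007 had the same sign in each line. This fit puts a shift that differs between lines into its error, which works against calling genes whose lines disagree. The count of equal signs among called genes is therefore largely set by the fit and is not separate evidence of a shared direction. Scaling each array by its 75th percentile instead gave 417 higher and 689 lower. The count was 468 to 641 without any 1 of 8 arrays, which were both 6 h arrays of each line and the first 24 h arrays of SKMEL5 and WM2664. The shifts were small: the median size among the called genes was 0.27, and only HDAC5, CHAC1, PLD3 and NUPR1 reached a doubling, all of them higher at 24 h. CHAC1, NUPR1, PCK2, CBS and ASNS of the amino acid response were among the 8 largest rises, and 19 genes of DNA replication were among those that fell. Both 24 h arrays lay above both 6 h arrays in every line for 557 genes (5%) and below them for 689 (6.18%).

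Genes of the amino acid response rose in each of the 3 lines, most of them in SKMEL5. Of the list's 37 listed genes, 35 were tested, and 22 of them rose while 1, ATF5, fell, against 4.59% and 4.44% of all genes tested. The median difference of the list was 0.43, where that of all genes tested was 0.003. For 17 of the 35 genes both 24 h arrays lay above both 6 h arrays in each line (5% of all genes tested). In SKMEL5 19 of the 35 rose, with a median of 0.60 (4.66% of all genes rose in this line). In WM2664 9 rose, with a median of 0.38 (1% of all genes), and in A375 3 rose, with a median of 0.26 (1.18% of all genes).

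Part of the ATF4 response is wired through a short composite DNA element, and promoter stretches that hold its core letters are shown here for 3 of the genes whose values follow. The core searched was TGATGNAA on either strand, within 250 bases before to 50 bases after the start site in RefSeq promoters of GRCh38. It was present in 3.62% of 35116 promoters. Of the 22 genes that rose, 16 had a promoter in the table and 3 of these held the core, CHAC1, ASNS and SLC3A2. Of the 6 aminoacyl-tRNA synthetases that rose, AARS1 and CARS1 held it. Each stretch is written in the direction of its gene, with the matching letters in capitals.
CHAC1: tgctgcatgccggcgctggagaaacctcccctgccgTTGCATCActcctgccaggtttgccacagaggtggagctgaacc
ASNS: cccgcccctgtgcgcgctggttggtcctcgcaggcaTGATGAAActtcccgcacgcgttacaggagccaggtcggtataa
AARS1: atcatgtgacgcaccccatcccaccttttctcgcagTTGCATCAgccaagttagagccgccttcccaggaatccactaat
The CHAC1 stretch is chr15:40953226-40953305 on the plus strand, with the match at positions -209 to -202 from the start site. The ASNS stretch is chr7:97872433-97872512 on the minus strand, with the match at -68 to -61. The AARS1 stretch is chr16:70289650-70289729 on the minus strand, with the match at -187 to -180. All 3 lie upstream of the annotated start. A match of letters is a description, and no measurement of factor binding was made.

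CHAC1, which degrades glutathione and is among the most strongly induced ATF4 targets, had the largest shared difference of all called genes. SKMEL5 arrays read 297 and 342 at 6 h against 592 and 608 at 24 h. In WM2664 CHAC1 was at the floor on both 6 h arrays and read 178 and 129 at 24 h, at least 4.73-fold higher. In A375 it was again at the floor at 6 h and read 60.6 and 190 at 24 h, at least 3.35-fold higher. The times did not overlap in any line, and the shared difference was 1.63 ± 0.28 (SE, 6 arrays against 6; adjusted p = 0.0106), a value that the floor at 6 h limits.

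ASNS makes asparagine from aspartate and glutamine. It read 2072 and 2003 at 6 h and 5350 and 4699 at 24 h in SKMEL5. In WM2664 it read 1873 and 1784, then 3456 and 3535. In A375 it read 905 and 968, then 875 and 1809, so that the times overlapped there through the first 24 h array. The shared difference of ASNS was 0.89 ± 0.18 (adjusted p = 0.0170). The cystine importer SLC7A11 read 944 and 889 at 6 h against 1982 and 2351 at 24 h in SKMEL5. WM2664 gave 1618 and 1652 against 3152 and 2492, and A375 gave 581 and 517 against 620 and 1007. All 24 h arrays of SLC7A11 were above the 6 h arrays of their line, and the shared difference was 0.85 ± 0.14 (adjusted p = 0.0101).

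Genes of sulfur amino acid metabolism moved with them. CBS, which condenses homocysteine with serine, differed by 0.94 ± 0.16, and CTH, which releases cysteine in the next step, by 0.83 ± 0.12. CBS went from 265 and 244 to 782 and 770 in SKMEL5, from 253 and 284 to 474 and 396 in WM2664, and from 55.2 and 56.4 to 81.1 and 80.5 in A375. These groups did not overlap in any line, and both genes were called in each line taken alone. The size differed between lines for CBS (1.61 in SKMEL5, 0.69 in WM2664 and 0.53 in A375, F-test adjusted p = 0.0201) and for CTH (1.28, 0.47 and 0.74, adjusted p = 0.0495).

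Serine synthesis was represented by PHGDH, PSAT1 and PSPH, the enzymes of its consecutive steps, with shared differences of 0.67, 0.59 and 0.40, all called. PSAT1 read 2870 and 2822 at 6 h against 5458 and 5718 at 24 h in SKMEL5. The mitochondrial folate enzymes SHMT2 and MTHFD2, which take over the carbon unit of serine, rose by 0.26 and 0.43. PCK2, a mitochondrial enzyme that makes phosphoenolpyruvate, had a larger difference of 0.97 ± 0.17 (adjusted p = 0.0130). Its arrays read 254 and 274 against 647 and 806 in SKMEL5, 209 and 269 against 577 and 391 in WM2664, and 149 and 129 against 160 and 227 in A375. Again no line showed an overlap.

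Among the regulators of the response, ATF4 itself rose by 0.37, CEBPB by 0.23 and the pseudokinase TRIB3 by 0.68. SESN2, a leucine sensor that restrains the growth kinase complex mTORC1, rose by 0.65 and PPP1R15A, which reverses the translation block, by 0.49. NUPR1, a stress-induced nuclear protein, differed by 1.06 over the lines but unequally: 1.91 in SKMEL5, 1.07 in WM2664 and 0.20 in A375, where its arrays lay at or near the floor (F-test adjusted p = 0.0174). The call for NUPR1 ended without SKMEL5 6 h replicate 1 or WM2664 24 h replicate 1. ATF5, a relative of ATF4, went the other way at -0.49 ± 0.10 (adjusted p = 0.0191), from 105 and 103 to 59.5 and 87.0 in SKMEL5, from 151 and 158 to 89.96 and 100.3 in WM2664, and from 176 and 183 to 162 and 140 in A375. DDIT3 and ATF3 were not called for the shared effect, at 0.49 and 0.44, though both values lay above the list median of 0.43. VLDLR (0.32), STC2 (0.08) and GDF15 (0.04) were not called either.

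Replicates of A375 at 24 h differed in this list. For 20 of the 22 genes that rose, the second A375 array at 24 h was above the first, and their median difference from the 6 h mean was 0.52 on the second array and 0.14 on the first. Over all genes tested both medians were 0 in A375. In SKMEL5 the same medians were 0.74 on the first and 0.69 on the second array, and in WM2664 0.60 and 0.51. Of the 35 genes, SKMEL5 had the highest difference of the 3 lines for 23, WM2664 for 8 and A375 for 4. Only CBS, CTH and NUPR1 passed the test of a difference between lines.

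**Figure D1:**
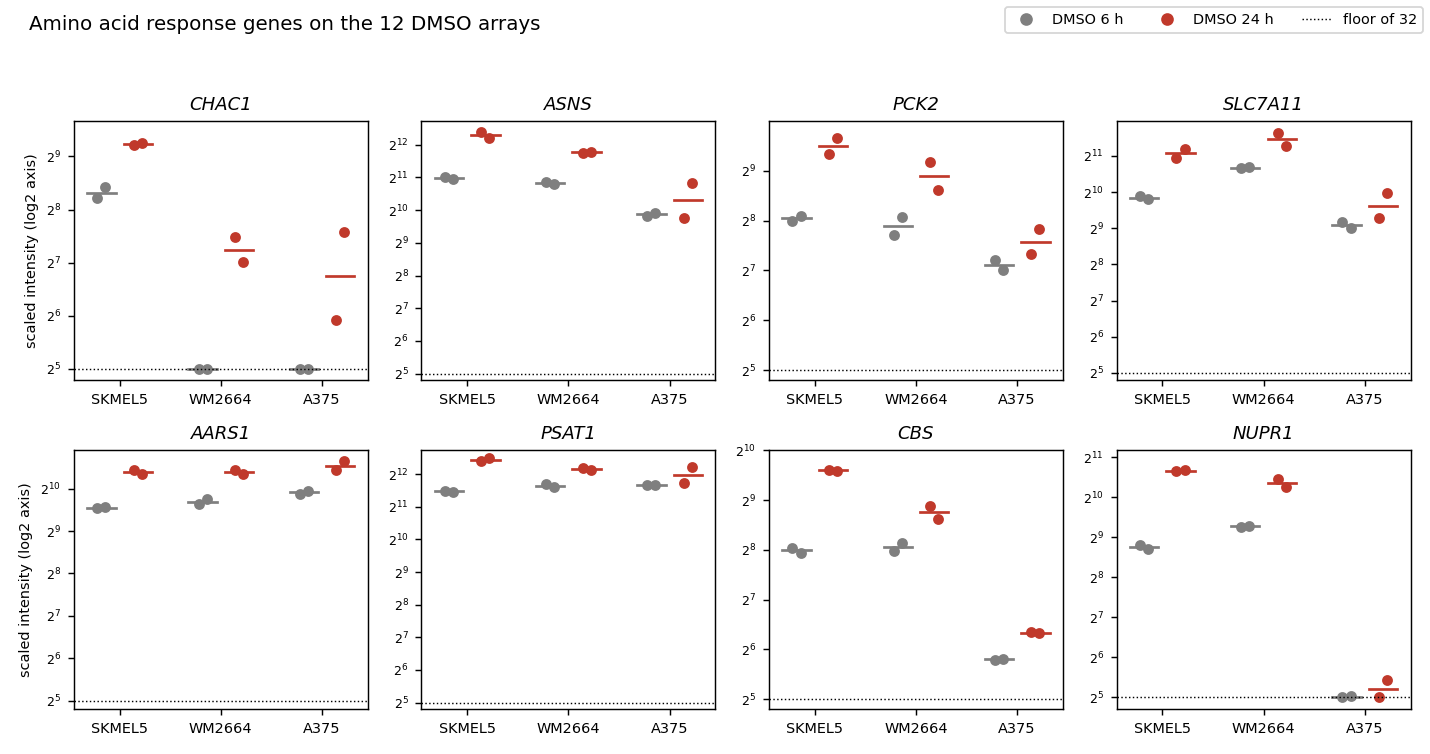
Scaled intensity (log2 axis, floor of 32 as a dotted line) of 8 amino acid response genes on each of the 12 DMSO arrays, by cell line, at 6 h (grey) and 24 h (red), with the mean of each pair of arrays as a bar. The 24 h arrays stand above the 6 h arrays in SKMEL5 and WM2664 for every gene shown, and the A375 24 h arrays lie apart from each other for CHAC1 and ASNS.

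The count for this list was 14 without SKMEL5 6 h replicate 1, SKMEL5 24 h replicate 1, WM2664 6 h replicate 1 or WM2664 24 h replicate 1, each left out alone. Without the 3 arrays that carried another line's transcripts the count was 0 while the median was 0.47, and in the values as deposited, with no scaling between arrays, 7 rose and 0 fell. In SKMEL5 alone the count of 19 became 8 without 6 h replicate 1 or 24 h replicate 2, 10 without 6 h replicate 2 and 12 without 24 h replicate 1 of that line. In WM2664 alone the count of 9 became 2 to 5 without any 1 of its 4 arrays, the 6 h arrays of SKMEL5 or the 6 h arrays of A375. In A375 alone the calls ended without its 6 h replicate 2. The A375 median was 0.42 without its 24 h replicate 1, against 0.26 from all arrays. With all of SKMEL5 left out the shared fit called 2 of the 35 genes, at a median of 0.34. With all of WM2664 left out it also called 2, at a median of 0.35.

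The enzymes that charge tRNA with amino acids moved unevenly. Of the 20 cytosolic aminoacyl-tRNA synthetases listed, 17 were tested, 6 rose and 1 fell, against 4.59% and 4.44% of all genes, and the median difference was 0.12. AARS1, the alanine enzyme, read 744 and 761 at 6 h against 1394 and 1306 at 24 h in SKMEL5. WM2664 gave 801 and 858 against 1381 and 1300, and A375 gave 944 and 981 against 1386 and 1605. The 2 times were well apart in each line, AARS1 was called in each line alone, and the shared difference of 0.72 ± 0.05 (adjusted p = 0.000664) was called also without the 3 arrays named above. CARS1 (0.42), GARS1 (0.39), SARS1 (0.39), WARS1 (0.37) and EPRS1 (0.21) rose as well, and RARS1, the arginine enzyme, fell (-0.15). Those for phenylalanine, histidine, isoleucine, lysine and valine lay between -0.19 and 0.12 and were not called. The RARS1 call ended in 14 of 26 alternative settings.

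Fewer lipid synthesis genes rose, among them SREBF1, INSIG1 and SCD. Of 18 cholesterol synthesis genes tested, 3 rose (INSIG1, STARD4 and LSS) and 0 fell, with a median of 0.15, against 4.59% of all genes higher. Of 14 fatty acid synthesis genes tested, 3 rose (SREBF1, SCD and ACACA) and 0 fell, with a median of 0.20. In A375 alone 4 cholesterol genes rose, with a median of 0.26, and 6 fatty acid genes rose and 1 fell, with a median of 0.29, against 1.18% of all genes higher and 0.79% lower in that line. In WM2664 alone 1 cholesterol gene and 3 fatty acid genes rose, with medians of 0.23 and 0.11, against 1% of all genes. WM2664 had the highest difference of the lines for 10 of the 18 cholesterol genes and A375 for 8, while A375 had the highest for 10 of the 14 fatty acid genes. In SKMEL5 alone the cholesterol list had a median of 0.04, with 0 genes higher and 1, ACAT2, lower.

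SREBF1 encodes the SREBP that favours fatty acid genes. Its arrays read 224 and 224 against 353 and 294 in SKMEL5, 505 and 438 against 782 and 671 in WM2664, and 218 and 188 against 432 and 421 in A375. No overlap occurred, SREBF1 was called in each line, and the shared difference was 0.74 ± 0.10 (adjusted p = 0.00656). INSIG1, the sterol-sensing anchor and itself an SREBP target, was far less even. It read 319 and 256 against 325 and 346 in SKMEL5, 726 and 655 against 1033 and 1076 in WM2664, and 310 and 298 against 845 and 865 in A375. The line differences of INSIG1 were 0.23, 0.61 and 1.49, and they differed between lines (F-test adjusted p = 0.0201). Its shared difference was 0.78 ± 0.17 (adjusted p = 0.0253), a call that ended without A375 6 h replicate 1.

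SCD introduces the double bond into saturated fatty acids. It read 2939 and 2806 against 3393 and 3387 in SKMEL5, 3325 and 3432 against 4660 and 4708 in WM2664, and 1676 and 1656 against 3442 and 3578 in A375. Like SREBF1 it was called in each line alone, though 2 other SCD probe sets stood at -0.18 and -0.11 in SKMEL5, and unlike SREBF1 it differed between lines, at 0.24, 0.47 and 1.08 (F-test adjusted p = 0.0136; SREBF1 0.233). SREBF2, the SREBP that favours sterol genes, was higher at 24 h in A375 (0.97, called) and stood at 0.74 in WM2664 and -0.41 in SKMEL5, both uncalled. STARD4, a sterol carrier, rose by 0.99 in A375 and stood at 0.18 in SKMEL5 and 0.26 in WM2664, a difference between lines that was not called (F-test adjusted p = 0.0556). HMGCS1, the first committed enzyme of the mevalonate pathway, stood at 0.09 and was not called in any line. Without A375 6 h replicate 1 no cholesterol gene was called for the shared effect, and without A375 6 h replicate 2 the A375 fatty acid count was 1. ACACA and STARD4 kept their shared calls in 2 of the 12 fits that each left out 1 array. None of the 6 lipid genes held the sterol element core TCACNCCAC in its promoter window, where 1.13% of all promoters held it.

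**Figure D2:**
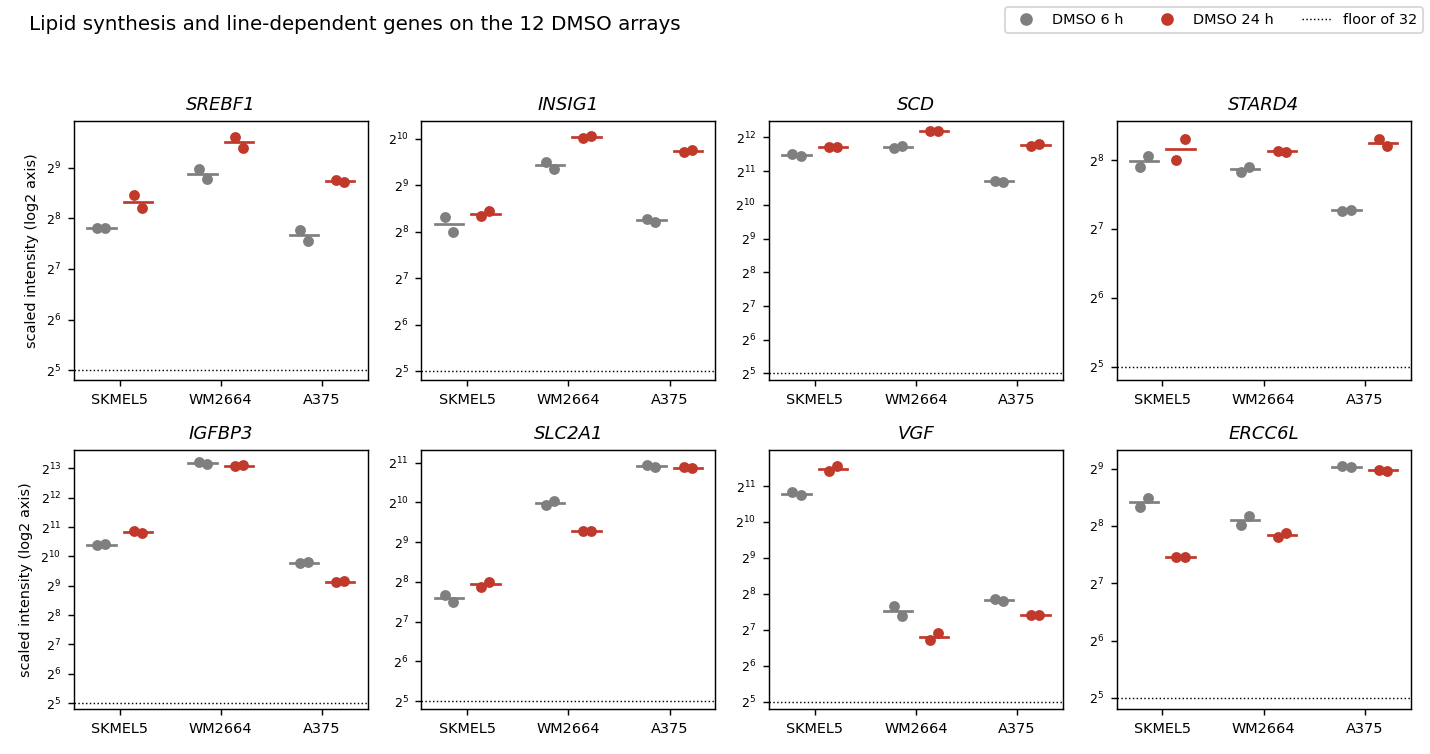
Scaled intensity (log2 axis, floor of 32 as a dotted line) of lipid synthesis genes (upper row) and genes whose time difference depended on the line (lower row) on each of the 12 DMSO arrays at 6 h (grey) and 24 h (red), with means as bars. INSIG1 goes from 310 and 298 to 845 and 865 in A375 and from 319 and 256 to 325 and 346 in SKMEL5, while VGF is higher at 24 h in SKMEL5 and lower at 24 h in the other lines.

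DNA replication genes were lower at 24 h, mainly in SKMEL5. Of 45 tested, 19 fell and 1, MCM2, rose, against 4.44% and 4.59% of all genes, and the median difference was -0.23. Below 0 lay 43 of the 45, and for 23 both 24 h arrays were under both 6 h arrays in every line (6.18% of all genes tested). In SKMEL5 30 fell, with a median of -0.47 (4.48% of all genes fell in this line). In WM2664 2 fell, CCNE2 and EXO1, with a median of -0.16 (0.87% of all genes). In A375 0 fell by limma, with a median of -0.08 (0.79% of all genes). At an unadjusted p under 0.05 A375 had 10 of them lower and 1 higher, where 1892 of all 11145 genes tested passed in either direction. SKMEL5 had the lowest difference of the 3 lines for 43 of the 45 genes, and the test of a difference between lines was passed by DTL, GINS1, GINS2 and POLE2.

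CCNE2, the cyclin E that activates CDK2 at the start of S phase, fell in SKMEL5 and WM2664 taken alone. Its arrays read 623 and 667 against 437 and 445 in SKMEL5, 745 and 663 against 520 and 517 in WM2664, and 926 and 825 against 653 and 710 in A375. Times were separate in each line, and the shared difference was -0.45 ± 0.05 (adjusted p = 0.00595). MCM10, which helps to activate the loaded replicative helicase, read 519 and 471 against 344 and 286 in SKMEL5, 380 and 340 against 277 and 266 in WM2664, and 933 and 951 against 767 and 803 in A375, a shared difference of -0.44 ± 0.07 (adjusted p = 0.00985). CDC6 (-0.43), CDT1 (-0.37) and ORC1 (-0.47), which license origins, also fell, as did E2F8 (-0.39), the nucleotide enzymes RRM2 (-0.24) and TYMS (-0.19), and EXO1 (-0.36). GINS1, part of the replicative helicase, fell by 0.80 in SKMEL5 on the log2 scale, and stood at -0.24 in WM2664 and -0.23 in A375 (F-test adjusted p = 0.0402).

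MCM2, a subunit of the same helicase, went against its list. It read 188 and 214 against 277 and 172 in SKMEL5, 191 and 213 against 324 and 327 in WM2664, and 1139 and 1206 against 1653 and 1779 in A375. The shared difference was 0.45 ± 0.12 (adjusted p = 0.0469), the times overlapped in SKMEL5, and the call remained in 2 of the 12 fits without 1 array. Its partners MCM3, MCM4, MCM6 and MCM7 were not called, nor was MCM5.

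Mitosis genes had few calls over the lines. Of 44 tested, 2 rose (AURKB and KIF14) and 2 fell (CDK1 and KIF23), each way 4.55% and near the 4.59% and 4.44% of all genes. The median was -0.10 and 31 of the 44 lay below 0. The mean of the line effects in the 6-group fit called 2 higher and 10 lower, and scaling by the 75th percentile 1 higher and 5 lower. The shared calls of KIF14, CDK1 and KIF23 ended in 16, 15 and 15 of 26 alternative settings. In SKMEL5 18 fell, against 4.48% of all genes, with a median of -0.31. In WM2664 and A375 0 were called by limma, with medians of 0.03 and 0.03. At an unadjusted p under 0.05 WM2664 had 5 higher and 0 lower, and A375 4 higher and 1 lower. Of all 11145 genes tested, 2081 and 1892 passed that threshold in these 2 lines, in either direction. The SKMEL5 count was 9 without SKMEL5 6 h replicate 1 and 10 without its 6 h replicate 2. MKI67, the common marker of cycling cells, read 601 and 625 against 331 and 404 in SKMEL5, a difference of -0.74 that was called there. It stood at -0.04 in WM2664 and -0.08 in A375, and the test of a difference between lines gave an adjusted p of 0.0892. ERCC6L, a mitotic DNA translocase, differed between lines at -0.96, -0.25 and -0.07 (F-test adjusted p = 0.0174). The 3 other MKI67 probe sets stood at 0.02, -0.29 and -0.03 in SKMEL5, so the fall of MKI67 rests on the probe set used and is uncertain. A second probe set of AURKB stood at -0.49 where the one used stood at 0.47, so AURKB is reported as uncertain.

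**Figure D3:**
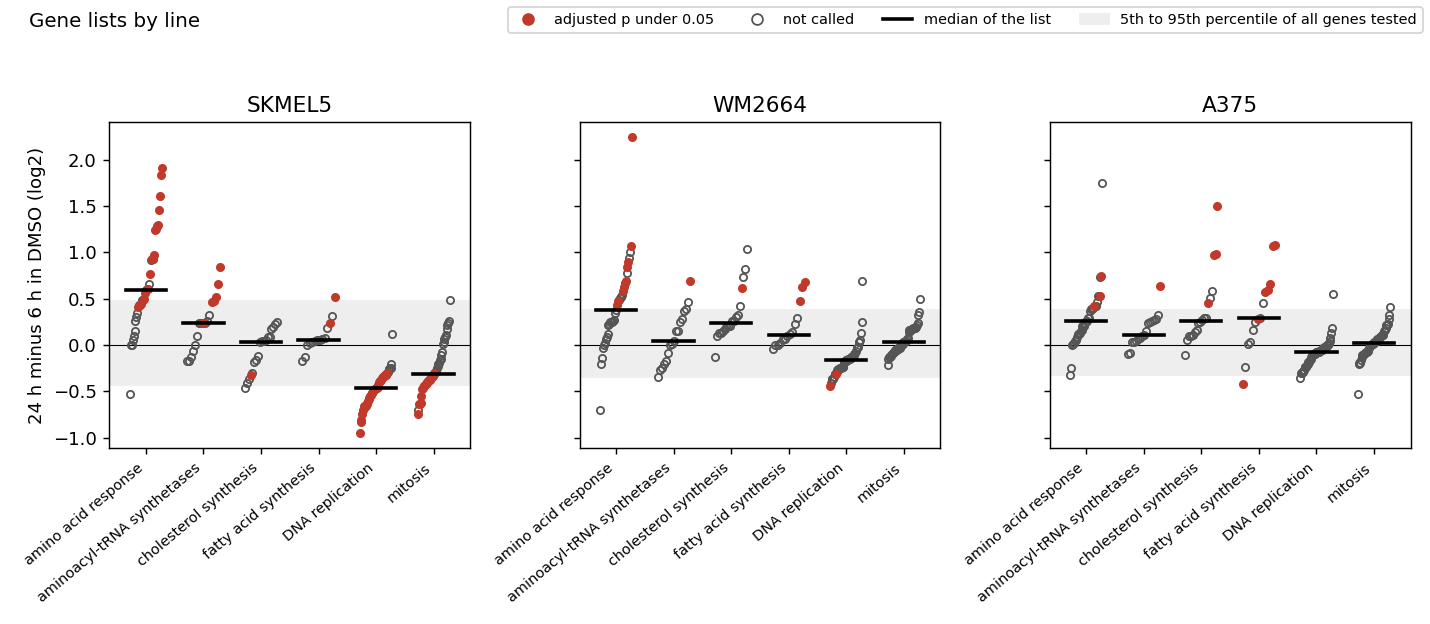
Log2 difference of 24 h over 6 h for each tested gene of 6 lists in SKMEL5, WM2664 and A375, with filled points for an adjusted p under 0.05, bars for the list medians and a grey band for the 5th to 95th percentile of all genes tested. The amino acid response has medians of 0.60, 0.38 and 0.26 in the 3 lines, and DNA replication has medians of -0.47, -0.16 and -0.08.

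**Figure D4:**
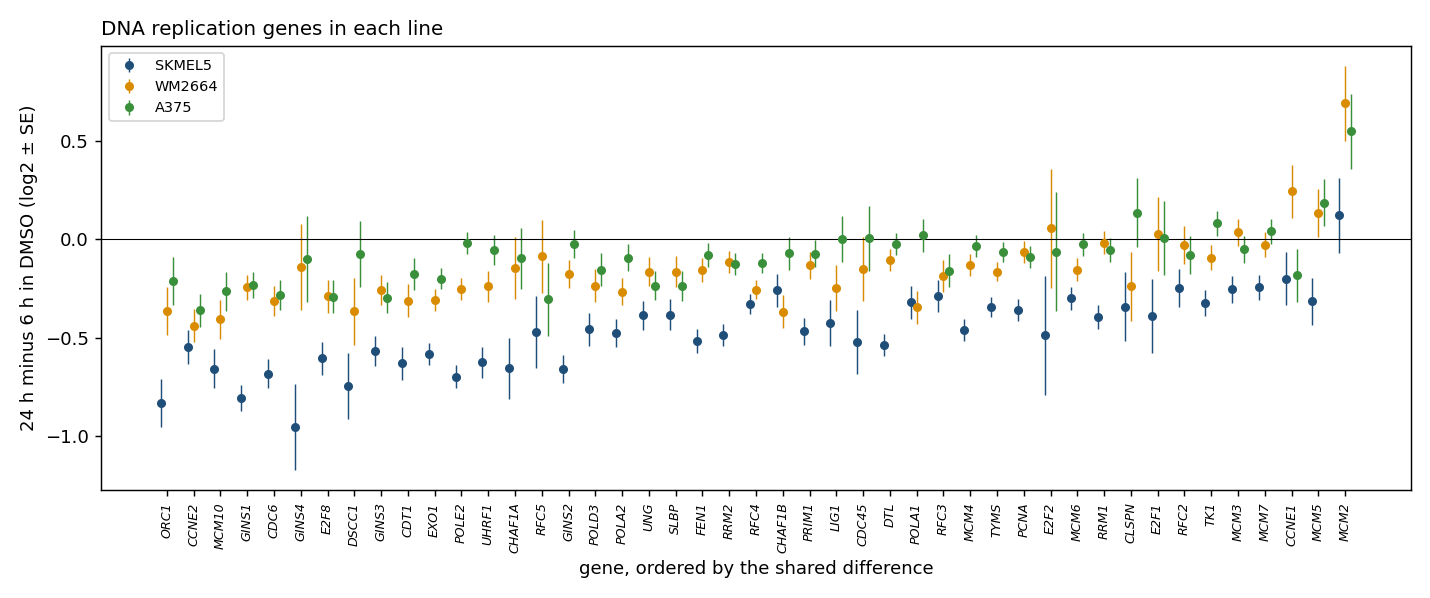
Log2 difference of 24 h over 6 h (points) and its SE (bars) for the 45 DNA replication genes in each line, ordered by the shared difference. SKMEL5 is the lowest of the lines for 43 genes, and MCM2 at the right end stands above 0 in all 3 lines.

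The fall of the replication list was counted at 12 genes without SKMEL5 6 h replicate 1, 10 without SKMEL5 6 h replicate 2 and 12 without WM2664 6 h replicate 1, and the SKMEL5 count at 16 without SKMEL5 6 h replicate 1. In the values as deposited, with no scaling, 0 replication genes were called and the median was -0.23. With SKMEL5 left out, 4 of 45 fell, 1 rose and the median was -0.12, and the mitosis median was then 0.03.

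Outside these groups, several single genes differed in every line. HDAC5, a class II histone deacetylase, had the largest shared difference after CHAC1 among called genes. It read 46.0 and 56.6 against 137 and 137 in SKMEL5, 61.4 and 51.2 against 169 and 97.4 in WM2664, and lay at the floor against 68.7 and 64.4 in A375. The shared difference was 1.22 ± 0.13 (adjusted p = 0.00423), no line overlapped, and the A375 rise is at least 2.08-fold. CTSA, the lysosomal protective protein cathepsin A, read 3072 and 3323 against 4703 and 4342 in SKMEL5, 1958 and 2067 against 2819 and 2573 in WM2664, and 650 and 721 against 1137 and 1103 in A375. Its difference was 0.54 ± 0.06 (adjusted p = 0.00565), and like AARS1 it was called in each line alone. The genes called higher in each of the 3 lines were AARS1, CBS, CTH, CTSA, SCD and SREBF1.

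DDIT4, an inhibitor of mTORC1 that many stresses induce, differed by 0.73 ± 0.11 (adjusted p = 0.00883). Its arrays read 1213 and 1286 against 2167 and 1924 in SKMEL5, 1985 and 2018 against 2787 and 2571 in WM2664, and 850 and 805 against 1449 and 2067 in A375. PINK1, the kinase that marks damaged mitochondria, rose by 0.66, the collagen receptor DDR2 by 0.70, and the noncoding STX17-DT by 0.76. POLD4, a small subunit of DNA polymerase delta, stood at 0.63, a call that remained in 5 of the 12 fits without 1 array.

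MMP1, an interstitial collagenase, had the largest shared fall at -0.999 ± 0.18 (adjusted p = 0.0130). It read 954 and 1029 against 359 and 356 in WM2664, 203 and 192 against 95.1 and 78.2 in A375, and 184 and 187 against 185 and 117 in SKMEL5. The fall was clear of the replicate spread in WM2664 and A375, and the times overlapped in SKMEL5. LYPD1 and TIPIN, a replication fork protector, were the only genes called lower in each of the 3 lines. LYPD1 read 339 and 348 against 188 and 186 in SKMEL5, 1012 and 1005 against 788 and 730 in WM2664, and 339 and 340 against 263 and 248 in A375, with larger falls in SKMEL5 (-0.88) than in the others (-0.41 and -0.41; F-test adjusted p = 0.0491). TNFRSF12A, the receptor for the cytokine TWEAK, fell by 0.54 on the log2 scale and CDC25A, a phosphatase that activates cyclin-dependent kinases, by 0.62. The CDC25A call ended without SKMEL5 6 h replicate 1 or 2, SKMEL5 24 h replicate 1 or WM2664 6 h replicate 1.

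Several other lists that bear on density, nutrients and stress had 3 to 6 calls each. They are to be read against the 4.59% of all genes that rose and the 4.44% that fell. Contact and junction genes had only 1 of 16 higher (6.25%) and 0 lower, at a median of -0.0063. Immediate early genes had 1 of 24 higher (4.17%) and 0 lower, at a median of -0.0099. Of 19 tested FOXO and growth factor withdrawal genes 3 rose (15.8%), TSC22D3 (0.72), YPEL5 (0.31) and RBL2 (0.29), with a median of 0.12. TSC22D3 was at or near the floor in A375, where its times overlapped, and its shared call ended in 16 of 24 alternative settings. Hypoxia targets had a median of 0.01, with DDIT4 and P4HA2 (0.16) higher and ADM (-0.28) lower among 20 tested. In glycolysis, with a median of -0.03 over 21 genes, PFKP (0.28) and GPI (0.25) rose and PFKFB3 (-0.14) fell. The lysosome and autophagy list had 5 higher (17.9%) and 1 lower of 28, among them CTSA, HEXA (0.38), NEU1 (0.33) and NPC2 (0.22), at a median of 0.02. Oxidative phosphorylation had 4 of 26 higher (15.4%), NDUFV1, NDUFA2, COX7B and NDUFA1, at 0.19 to 0.33. Ribosome biogenesis had 1 of 26 higher, RRP9 (0.52), and 5 lower (19.2%), such as NIP7 (-0.29), with a median of -0.07. Of the calls in these lists, those of P4HA2 and NPC2 ended in 15 and 16 of 26 alternative settings, and that of PFKFB3 in 15 of 25.

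The ETS factors ETV4 (0.34), ETV5 (0.31) and ETV1 (0.22), outputs of the MAP kinase pathway, rose among 23 such genes (13.0%, against 4.59% of all genes), whose median was -0.0049. For ETV1 and ETV5 other probe sets had the opposite sign, so these 2 are uncertain. Among 16 NRF2 targets SLC7A11 and PGD (0.43) rose, GCLM (-0.37) and SRXN1 (-0.29) fell, 12.5% each way, and the median was -0.01. Of 26 interferon genes 3 rose (11.5%), IFIT1 (0.50), IFI6 (0.41) and IFITM2 (0.31). YAP and TEAD targets, which report cell spreading and contact, had 2 higher and 2 lower of 24, 8.33% each way against 4.59% and 4.44% of all genes. AMOTL1 and WWTR1 rose, THBS1 (-0.30) and FJX1 (-0.25) fell, and other probe sets of AMOTL1 and WWTR1 had the opposite sign. The shared calls of PGD and WWTR1 ended in 15 and 20 of 26 alternative settings, and that of IFITM2 in 13 of 25. For AMOTL1 the call ended in 13 of 26 and the sign reversed in 1 more. The heat shock (13 tested), p53 (21), circadian clock (15), NF-kappaB (17), MondoA (6), liver X receptor (5) and melanocyte lineage (19) lists had 0 genes called by limma for the shared effect. At an unadjusted p under 0.05 they held 4, 4, 6, 3, 2, 3 and 5 genes, where 3106 of all 11145 genes tested passed that threshold. Their medians were -0.02, -0.02, 0.07, 0.02, 0.06, 0.22 and -0.0036. Endoplasmic reticulum chaperones and their regulators had 2 of 18 higher (11.1%), XBP1 (0.48) and HERPUD1 (0.44), at a median of -0.02. The XBP1 call ended in 14 of 26 alternative settings.

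Several genes often read as markers of growth state were not called over the lines. MITF, the melanocyte master regulator, stood at -0.0036 ± 0.04, with 6851 and 6784 against 6600 and 6712 in SKMEL5. MYC stood at -0.0023 ± 0.06 and EGR1 at -0.01 ± 0.10, and CCND1 at 0.09 ± 0.06. A second CCND1 probe set stood at -0.25 over the lines, and at -0.49 in SKMEL5 where the one used stood at 0.21. Other EGR1 probe sets stood at -0.36 and 0.12. CCND1 and EGR1 are therefore uncertain. TXNIP, which rises with glucose, stood at -0.02 ± 0.17. In single lines it stood at 0.62 in SKMEL5 (called), -0.18 in WM2664 and -0.50 in A375, with an adjusted p of 0.0828 for the difference between lines. The 2 other TXNIP probe sets stood at 0.16 and 0.53 in SKMEL5. ARRDC4, its partner in glucose sensing, stood at 0.06 and CCN2, a YAP target, at 0.05. CDKN1A (0.17) and VEGFA (0.34) were not called either, and VEGFA was called in SKMEL5 alone at 0.88.

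Taken line by line, SKMEL5 had the most calls, 1018 (9.13%; 519 higher, 499 lower), against 209 in WM2664 (1.88%; 112 and 97) and 219 in A375 (1.97%; 131 and 88). The lines share 1 estimate of spread per gene in this fit. A line with all its arrays at the floor adds no spread, so the adjusted p of such a gene can be too small in the other lines. SKMEL5 and WM2664 had 42 higher calls in common, 8.09% of the first and 37.5% of the second. SKMEL5 and A375 had 23, 4.43% and 17.6%, and WM2664 and A375 had 15, 13.4% and 11.5%. Of the lower calls SKMEL5 and WM2664 had 27 in common, 5.41% and 27.8%, SKMEL5 and A375 had 11, 2.2% and 12.5%, and WM2664 and A375 had 6, 6.19% and 6.82%. These stand beside 4.66%, 1% and 1.18% of all genes called higher in the lines in turn, and 4.48%, 0.87% and 0.79% called lower. These counts fell with single arrays: SKMEL5 to 259 without its 6 h replicate 1, 387 without its 6 h replicate 2 and 408 without its 24 h replicate 2. The WM2664 count was 59 to 138 without any 1 array other than the 24 h arrays of SKMEL5. The A375 count was 47 to 141 without any 1 array other than the 24 h arrays of SKMEL5 and its own 24 h replicate 2.

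Among genes with a mean log2 of at least 6 at both times and no overlap between times, the largest rises in SKMEL5 were NUPR1, CBS, PCK2, PCSK7, ASNS and CTH. The largest falls there were the division genes GTSE1 (-0.98), ERCC6L (-0.96) and CENPM (-0.94), the helicase subunit GINS4 (-0.95), LFNG (-0.98) and IPPK (-0.95). The 3 other GTSE1 probe sets above the floor stood at -1.15, -0.36 and -0.39. By the same rule, in WM2664 MMP1 (-1.47), PAGR1 (-1.19) and ANGPTL4 (-1.18), a secreted lipase inhibitor, fell most. A second PAGR1 probe set stood at -0.12 there, so PAGR1 is uncertain. CHST5, a sulfotransferase, rose there by 1.37, from 106 and 121 to 281 and 305. It fell in SKMEL5, from 150 and 107 to 83.0 and 68.6 (-0.74), and the lines differed (F-test adjusted p = 0.0165). In A375 DHRS3, which reduces retinaldehyde, rose by 1.29, from 130 and 155 to 346 and 348. It stood at 0.14 in WM2664 and at the floor on all SKMEL5 arrays. COL6A3 (-0.81), SULT1B1 (-0.94), PRELID2 (-0.84), FAM219B (-0.83) and DYNC1I1 (-0.76) fell in A375. A second FAM219B probe set stood at 0.28 there, so FAM219B is uncertain.

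A difference between lines was called for 145 genes (1.3%), of which 122 had lines of opposite sign and 10 were also called for the shared effect. The shared fit puts such differences into its error, so a small overlap is largely set by the fit. VGF, a secreted neuropeptide precursor, had the widest range among such genes with a mean log2 of at least 6 in each of the 6 groups. It rose in SKMEL5 from 1819 and 1726 to 2719 and 2999, fell in WM2664 from 203 and 169 to 105 and 121, and read 232 and 222 against 171 and 172 in A375. The line differences were 0.69, -0.72 and -0.41 (F-test adjusted p = 0.0165). The glucose transporter SLC2A1 read 205 and 180 against 235 and 255 in SKMEL5, 973 and 1040 against 623 and 622 in WM2664, and 1960 and 1882 against 1880 and 1861 in A375. It thus rose in SKMEL5 (0.35), fell in WM2664 (-0.69) and stood at -0.04 in A375 (F-test adjusted p = 0.0165). IGFBP3, a binding protein of insulin-like growth factors, rose in SKMEL5 from 1336 and 1361 to 1867 and 1773 and fell in A375 from 870 and 890 to 565 and 567, while WM2664 stood at -0.08 (F-test adjusted p = 0.0136). Without the 3 arrays that carried another line's transcripts limma called 0 differences between lines, with 1689 genes at an unadjusted p under 0.05 against 1971 from all arrays, and IGFBP3, SCD and VGF then had an adjusted p of 0.153. The count of 145 became 21 to 96 without any 1 array other than A375 24 h replicate 2 (145) and SKMEL5 24 h replicate 1 (279).

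The A-485 arrays give the same time step in cells under the inhibitor, with 1 array per line and time and no test. Of the 15 genes with the largest shared rise in DMSO among those with a mean log2 of at least 6 in each group, 13 also had a difference above 0 as the mean of the 3 A-485 pairs, and of the 15 with the largest fall by the same rule, 14 lay below 0. For the 22 amino acid response genes that rose in DMSO, however, 10 had the same sign, and the median was -0.10 with A-485 against 0.54 without. CHAC1 stood at -0.12 and SESN2 at -0.46, while SLC7A11 stood at 0.87, close to its 0.85 in DMSO. The 19 replication genes that fell in DMSO all lay below 0 with A-485, with a median of -1.40 against -0.28. Signs over all 11145 genes were the same for 7483. Whether the inhibitor changed the time step was not tested.

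**Figure D5:**
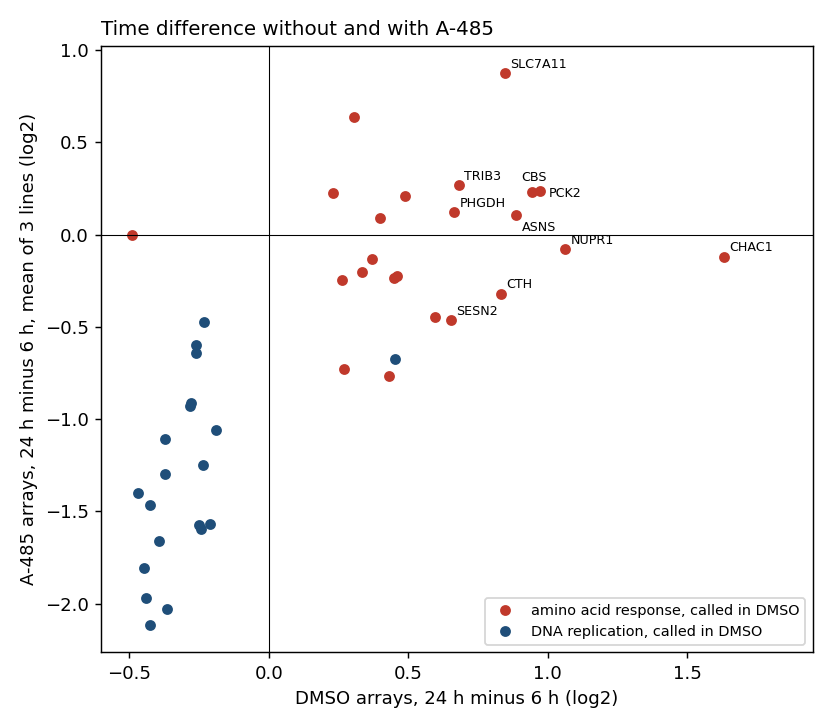
Log2 difference of 24 h over 6 h on the DMSO arrays (horizontal) and on the A-485 arrays as the mean of 3 lines (vertical) for genes called for the shared effect in the amino acid response list (red) and the DNA replication list (blue). The 19 replication genes that fell in DMSO lie lower with A-485, and the amino acid response genes that rose lie on both sides of 0 with A-485.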

How the data were processed

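RNA of the melanoma cultures was labelled with the 3' IVT Plus kit and hybridised to Affymetrix HG-U133 Plus 2.0 arrays, per the labels' protocols. The deposited values are linear intensities, 1 per probe set and array, and between 19.3% and 22.9% of them lay below 0 on a DMSO array. How the submitters corrected background and scaled them is not given in the sources used here.

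The 18 arrays were quantile normalized on the linear scale, raised to a floor of 32 where lower, and put on a log2 scale. The annotation table paired 41091 of the 54613 probe sets with a single symbol, 1801 with several and 11721 with no symbol, and 41037 symbols were updated by Entrez identifier. Each of 19775 genes was represented by whichever of its probe sets was brightest on average across the 12 DMSO arrays, and 11145 genes with a mean log2 of at least 5.5 were tested.

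limma 3.58.1 in R 4.3.3 fitted line plus time for the shared effect (8 residual degrees of freedom) and 6 group means for the effect in each line and for the F-test between lines (6 residual degrees of freedom), with Benjamini-Hochberg adjustment over all genes tested. Scripts were tested on simulated data. Replicate numbers did not pair the arrays, since deviations of same-numbered arrays correlated at -0.02, 0.01 and -0.02 in the 3 lines.

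An array was taken to carry another line's transcripts where probe sets of at least 1000 in that line and under 64 on the other arrays of its own had a median excess over 0.5%. Named genes were the 15 with the largest shared change in each direction, 6 per line and direction, 12 with the widest range between lines, up to 4 per list and direction, and a fixed set including MITF, MYC and TXNIP. Further list members were named for their role with their values known. The comparison, the 40 gene lists and the rule were chosen with earlier results of these data known. Alternatives covered the floor, scaling, filter, probe set choice, moderation, the replicate block and arrays left out.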

Additional observations from a re-analysis of the deposited data

Results flagged for a closer look

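The time difference depended on the line for 26 of the named genes by the limma F-test of line by time, adjusted over all 11145 genes tested. None of these passed that test once the 3 arrays with transcripts of another line were left out, and no explanation was tested. Differences are log2 of 24 h over 6 h in SKMEL5, WM2664 and A375, in that order, and each adjusted p is that of the F-test. Where a gene was at the floor of 32 in a line, its time difference there could not be read. A contrast with such a line cannot be told from a lack of signal, and the genes concerned are named below.

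Genes that were highest in A375 were DHRS3 (0.00, 0.14 and 1.29, adjusted p = 0.0136), SCD (0.24, 0.47 and 1.08, adjusted p = 0.0136), INSIG1 (0.23, 0.61 and 1.49, adjusted p = 0.0201) and B3GNT7 (-0.16, -0.34 and 0.86, adjusted p = 0.0165). DHRS3 was at the floor on all SKMEL5 arrays, which sets its 0.00 there. The histone genes H2BC5 (0.35, -0.48 and 0.53, adjusted p = 0.0397) and H2BC9 (0.05, -0.49 and 0.75, adjusted p = 0.0424) stood lowest in WM2664. Their near-identical family members may share probes, so both are uncertain.

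Genes that were lowest in A375 were IGFBP3 (0.43, -0.08 and -0.64, adjusted p = 0.0136), COL6A3 (0.00, 0.00 and -0.81, adjusted p = 0.0206), SULT1B1 (0.00, -0.13 and -0.94, adjusted p = 0.0365), PRELID2 (0.38, -0.05 and -0.84, adjusted p = 0.0201), FAM219B (0.46, 0.40 and -0.83, adjusted p = 0.0397) and DYNC1I1 (0.07, -0.10 and -0.76, adjusted p = 0.0497). FAM219B is uncertain, since a second probe set stood at 0.28 in A375. COL6A3 was at the floor on all SKMEL5 and WM2664 arrays, which sets its 0.00 in both lines. SULT1B1 was at the floor on all SKMEL5 arrays and at or near it in WM2664.

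WM2664 stood apart for CHST5 (-0.74, 1.37 and 0.00, adjusted p = 0.0165), ANGPTL4 (0.00, -1.18 and 0.07, adjusted p = 0.0165), RHBDF2 (0.00, -0.78 and 0.45, adjusted p = 0.0352) and SLC2A1 (0.35, -0.69 and -0.04, adjusted p = 0.0165). VGF had SKMEL5 on the other side of the remaining lines (0.69, -0.72 and -0.41, adjusted p = 0.0165). ANGPTL4 was at the floor on all SKMEL5 arrays, and ANGPTL4 and CHST5 were at or near it in A375. RHBDF2 was well above the floor in SKMEL5, so its 0.00 there was measured, but it was near the floor in A375.

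SKMEL5 had the larger rise for NUPR1 (1.91, 1.07 and 0.20, adjusted p = 0.0174), CBS (1.61, 0.69 and 0.53, adjusted p = 0.0201) and CTH (1.28, 0.47 and 0.74, adjusted p = 0.0495). It had the larger fall for ERCC6L (-0.96, -0.25 and -0.07, adjusted p = 0.0174), LFNG (-0.98, 0.00 and 0.02, adjusted p = 0.0220), GINS1 (-0.80, -0.24 and -0.23, adjusted p = 0.0402), LYPD1 (-0.88, -0.41 and -0.41, adjusted p = 0.0491), CWF19L1 (-0.56, 0.32 and 0.01, adjusted p = 0.0294) and ANAPC16 (-0.80, 0.07 and -0.17, adjusted p = 0.0404). The last 2 are uncertain. The 3 other ANAPC16 probe sets stood at 0.25, 0.28 and 0.32 in SKMEL5. The 2 other CWF19L1 probe sets stood at -0.37 and 0.12 in SKMEL5 and at -0.30 and -0.22 in WM2664. LFNG was at the floor on all WM2664 arrays, which sets its 0.00 there, and NUPR1 was at or near the floor in A375.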

How the results depend on the processing

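The number of arrays limits the precision. Signs of called genes changed less often than their calls. The alternatives reuse the arrays that picked these genes, so this is not separate evidence of direction. Counts are given in the order shared effect, SKMEL5, WM2664, A375 and difference between lines, where all 12 arrays with the settings of the report gave 1007, 1018, 209, 219 and 145. As deposited with a floor of 1 the counts were 0, 18, 7, 16 and 15, and with a floor of 32 and no scaling 18, 30, 4, 19 and 10; without scaling the median of all genes moved to 0.09, -0.12 and 0.09 in SKMEL5, WM2664 and A375. Scaling by the 75th percentile gave 119 in WM2664 and 78 between lines, and split the shared calls into 417 higher and 689 lower where the report has 512 and 495. A floor of 16 gave 129 in WM2664 and 61 between lines, and a floor of 64 gave 433, 353 and 326 in the last 3 comparisons. Without probe sets ending in _x_at or _s_at the counts were 657, 673, 107, 118 and 66 over 8344 genes. No filter on dim genes gave 352 between lines, trended robust moderation 323 in WM2664, and the mean of the line effects in the 6-group fit 1790 for the shared effect. Without the 3 arrays with transcripts of another line they were 7, 152, 0, 0 and 0. With a line left out, an alternative added after the data were seen, the shared effect had 153 calls without SKMEL5, 162 without WM2664 and 518 without A375. Leaving out each array in turn gave 468 to 828, 259 to 1175, 59 to 209, 47 to 214 and 21 to 279. The shared count fell by more than 1.5 times without SKMEL5 6 h replicate 1 (468) or 2 (529), SKMEL5 24 h replicate 1 (592), WM2664 24 h replicate 1 (498), WM2664 6 h replicate 1 (522) or 2 (641), or A375 6 h replicate 1 (613) or 2 (630). Reversed were AURKB (-0.011) and AMOTL1 (-0.10) with the mean of all probe sets and ETV5 (-0.019) without _x_at and _s_at probe sets; no other named gene reversed under the alternatives run.

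With line and replicate number as a replicate block the counts were 58, 71, 0, 0 and 0. The replicate numbers are shared names that did not pair the arrays, and the block spends degrees of freedom on them.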

Other observations

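PARP3, a DNA damage-linked ADP-ribosyltransferase, and SCIN, an actin-severing protein, were among the 7 genes called for the shared effect without the 3 arrays that carried another line's transcripts, at 0.85 and -0.67. TIPIN stood at -0.45 there. These genes were named after their values were seen.

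Among the 62 other probe sets with a mean log2 of at least 6 that belong to 37 of the named shared genes, 55 had the same sign as the probe set used and 7 the opposite. INSIG1 was read by 2 further probe sets, with shared differences of 0.78 and 0.73 against 0.78. TRIB3 had a second probe set at 1.14 against 0.68, and CBS 1 at 0.96 against 0.94. The 2 other probe sets of SLC7A11 stood at 0.55 and 0.78 against 0.85.

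With WM2664 and A375 alone, 33 of 35 amino acid response genes lay above 0 with a median of 0.34, and 2 were called higher. Of 45 DNA replication genes 40 lay below 0 with a median of -0.12, and 4 were called lower and 1 higher. That fit called 1.37% of all genes. With SKMEL5 and A375 alone the medians were 0.35 and -0.28. There 2 amino acid genes were called higher and 2 replication genes lower (1.45% of all genes called). With SKMEL5 and WM2664 alone the medians were 0.51 and -0.31. In that fit 19 amino acid genes were called higher and 1 lower, and 14 replication genes lower (4.65% of all genes called).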
